A study of Danio rerio with 32 samples.

Results

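Heat shock proteins and chaperones were followed in V2a interneurons of the zebrafish spinal cord. The genes were chosen by symbol: names beginning with hsp and a digit, a, b, d or e, names beginning with dnaj or with cct and a digit, and tcp1, st13 and stip1. In all, 99 gene IDs matched, and 93 of them reached 1 FPKM (fragments per kilobase of gene, relative to the library total) in at least 5 of the 32 libraries, as did 22552 of the 42370 genes in the deposited table. The 93 genes comprise 16 of the Hsp70 family, 4 of the Hsp90 family, 50 DnaJ genes (6 of class A, 14 of class B and 30 of class C), 9 subunit genes of the CCT ring, 8 small heat shock protein genes, HSPD1 and HSPE1, the 3 cochaperone genes ST13, STIP1 and HSPBP1, and HSPBAP1. The 6 genes that did not pass were DNAJC22, DNAJC5B, hspa12a.1, hspa12a.2, hspb9 and hspb9l, of which 4 reached 1 FPKM in 1 library and 2 in none. Just inside the limit were hsp90aa1.1 with 5 libraries, hspa1b with 6, HSPA12B and DNAJC25 with 7, and HSPB2 and HSPBAP1 with 8.

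The cells came from spinal segments 1 to 7 of Tg(Chx10:GFP) fish, in which V2a interneurons carry a green reporter, and were sorted by fluorescence. All 6 groups carry the reporter. D cells held rhodamine dextran, a tracer carried from the axon back to the cell body, and G cells had no tracer. D3W (5 libraries) and D8W (6 libraries) are cells with a regrown axon 3 and 8 weeks after spinal cord injury, and Dcon (5 libraries) are traced cells of uninjured fish. G3W (5 libraries) and G8W (5 libraries) are cells without tracer at the same times, and Gcon (6 libraries) are those of uninjured fish. Tissue was pooled from 20 fish for each condition, and the age of the fish is not given. The labels do not tie libraries to separate fish, so the spread behind the p-values is that between libraries, and it may be technical.

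Heat shock proteins and chaperones keep other proteins folded. Hsp70 proteins bind exposed stretches of unfolded proteins, J proteins deliver those clients and trigger the ATP use of Hsp70, and Hsp90 takes over late folding steps of kinases and receptors. The CCT ring folds actin and tubulin, from which growing axons build their cytoskeleton. Under heat or other stress, heat shock factors switch on a part of these genes, while others, the constitutive ones, are made in every cell. Neurons also use J proteins at the synapse, where vesicle coats and fusion proteins are taken apart.

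Sequencing depth differed by up to 2.95-fold between libraries, as read from the smallest steps of low FPKM values, and fragment totals are not in the table. Relative to the shallowest library, depth was 1.66 to 2.95 in D3W, 1.0 to 2.02 in D8W and 2.23 to 2.92 in Dcon. Every D8W library was thus shallower than every Dcon library, and the part of depth in zeros and low values was not tested. D3W replicates 3 and 5 had the fewest genes at 1 FPKM or more, 7755 and 8710. Markers of V2a and glutamatergic neurons were present in all groups, and 7 of them summed to 62.7 to 199 FPKM in D3W and 90.2 to 288 FPKM in D8W, against 58.6 to 490.0 FPKM in Dcon, with overlap. The mitochondrial genome's 13 protein genes took up 17.3 ± 5.9% of all FPKM in D3W, 18.1 ± 5.66% in D8W and 10.5 ± 2.37% in Dcon (SD, n = 5, 6 and 5). In these bulk samples, fewer cells of a type and less RNA per cell cannot be told apart. A listed 0 can be a failed estimate, so genes with zeros are given library by library or by their range.

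Few genes held most of the chaperone signal. Of the 93 genes, 10 averaged 100 FPKM or more over the 32 libraries, 46 between 10 and 100, 32 between 1 and 10 and 5 below 1, and 24 reached 1 FPKM in every library. The heat-inducible Hsp70 gene hsp70l had the highest mean over all libraries, 774 FPKM, but ranked first in Gcon alone; HSP90AA1 ranked first in D3W, Dcon, G3W and G8W, and HSP90AB1 in D8W. hsp70l was followed over all libraries by the cytosolic Hsp90 genes HSP90AA1 (717 FPKM) and HSP90AB1 (614 FPKM), then by HSPA2 (528 FPKM) and hsp70.3 (486 FPKM). The constitutive HSPA8 (ENSDARG00000068992) averaged 383 FPKM, and DNAJC5 (ENSDARG00000042948), the J protein of synaptic vesicles, 357 FPKM. The 8 highest genes held 65.3% of the chaperone FPKM on average, and 49.6 to 82.8% in single libraries. hsp70.1, hsp70.3 and hsp70l are close copies, as are other Hsp70 genes, so the split of reads among them is uncertain.

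The main contrast was between V2a cells with a regrown axon and traced cells of uninjured fish. Chaperone transcripts took a smaller part of all FPKM in the cells with a regrown axon, at both times and in every library. The 93 genes held 0.769, 0.711, 0.372, 0.494 and 0.499% of all FPKM in the D3W libraries, and between 0.359 and 0.82% with a median of 0.499% in D8W, against 1.15, 0.947, 1.25, 1.07 and 0.981% in Dcon. The highest library after injury thus lay below the lowest Dcon library. With the mitochondrial genome left out, the share was 0.684 ± 0.167% in D3W, 0.636 ± 0.178% in D8W and 1.21 ± 0.132% in Dcon, and the groups again did not overlap. In cells without tracer the share was 0.717 ± 0.245% in G3W, 0.819 ± 0.229% in G8W and 1.30 ± 0.593% in Gcon, where the 6 Gcon libraries ran from 0.526 to 2.09% and overlapped both injured groups. Markers of other cell types stood beside these shares. The summed microglia and macrophage markers were at 1261 to 14227 FPKM in D3W and 278 to 12631 FPKM in D8W, against 1103 to 5339.9 FPKM in Dcon. D3W replicate 3, the highest of D3W, had the lowest chaperone share of its group. D8W replicate 1, the highest of D8W, had the highest chaperone share of its group, 0.82%. Endothelial and mural markers summed to 4.29 to 137 FPKM in D3W and 10.6 to 182 FPKM in D8W, against 0.767 to 17.4 FPKM in Dcon. Their part in the shares was not tested. Mean FPKM was lower than in Dcon for 66 of the 93 genes in D3W and for 72 in D8W. D3W and D8W share the Dcon libraries, so these 2 counts are not independent. By log2 differences of FPKM as deposited, 67 members were negative in D3W and 68 in D8W, against 53.6 and 48.7% of all genes. The median-ratio scaling factors, from 6387 widely expressed genes, were 0.754 to 1.25 in D3W, 0.729 to 1.02 in D8W and 1.11 to 1.29 in Dcon. Such genes thus also lay low in D8W and in D3W replicates 3, 4 and 5, and the part of this shift was not tested.

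**Figure D1:**
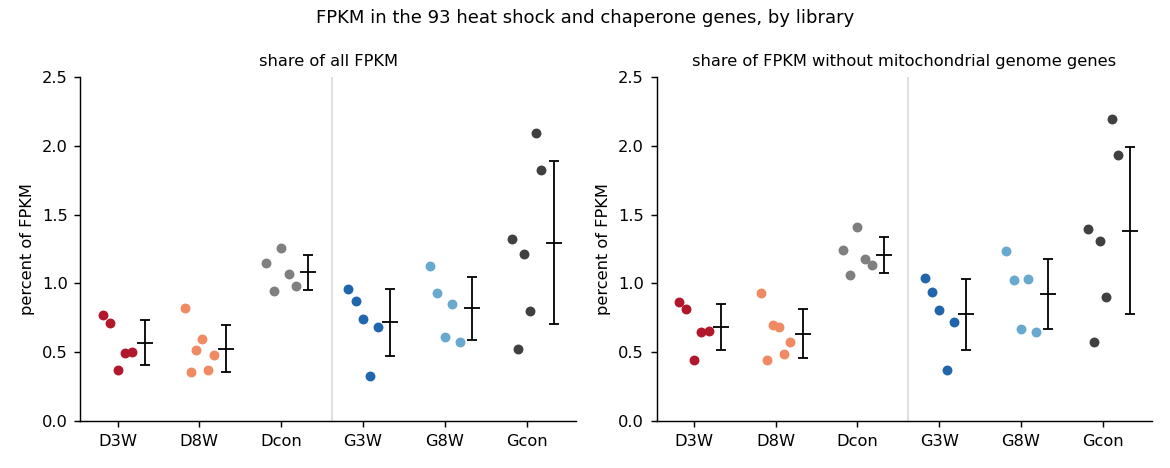
Percent of FPKM held by the 93 chaperone genes in each library (points), with the mean and SD of each group (bars), over all genes on the left and without the mitochondrial genome on the right. Every D3W and D8W library lies below the lowest Dcon library in both panels, while the Gcon libraries run from 0.526 to 2.09% of all FPKM and overlap each of the other groups.

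Gene by gene, no chaperone gene passed the test between D3W and Dcon. The test was limma on log2(FPKM + 1) after median-ratio scaling, with Benjamini-Hochberg adjustment over all 22552 genes and a threshold of 0.05, two-sided. Of all genes 0.789% passed in this comparison, so that 0 of 93 is near the background. At an unadjusted p under 0.05 there were 19 chaperone genes, 3 higher and 16 lower, or 20.4% against 12.5% of all genes. The median log2 difference of the 93 genes was -0.51, against 0.01 for all genes, and 64 of the 93 were negative, against 47.8% of all genes. Of 10 fits with 1 library left out, 8 kept the count at 0. The count also stayed at 0 without the 2 D3W libraries with fewest genes. Leaving out D3W replicate 2, the D3W library with the most genes at 1 FPKM or more (16366), let 570 of all genes pass. Among them were 9 chaperone genes, all lower in D3W: CCT3, both CCT2 genes, DNAJA2 (ENSDARG00000010745), DNAJC16 (ENSDARG00000059699), DNAJC2, HSPD1, HSPA12A and ST13. Between D8W and Dcon 0 of 93 passed by limma as well, where 0.0621% of all genes did, with 3 higher and 10 lower at an unadjusted p under 0.05, or 14% against 10.8% of all genes. The median there was -0.28 against 0.19 for all genes, with 59 of 93 negative, against 38.7% of all genes.

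The inducible Hsp70 genes of the cytosol lay low in D3W. hsp70l was at 543, 173, 159.8, 331 and 579 FPKM in D3W, and at 88.3 to 782 FPKM with a median of 202 in D8W, against 603, 731, 1471, 715 and 674 FPKM in Dcon. As deposited, its D3W libraries all lay below the Dcon libraries, and a single D8W library reached into their range. The scaling factor of D3W replicate 5 was 0.754, against 1.11 to 1.29 in Dcon. After scaling, that library lay within the Dcon range. The log2 difference was -1.0 ± 0.737 (SE; limma adjusted p = 0.633) in D3W and -1.39 ± 0.705 (adjusted p = 0.485) in D8W. hsp70.1, a close copy, stood at 87, 49.2, 34.1, 81.1 and 140.2 FPKM in D3W and 16.6 to 186 FPKM in D8W, against 168, 184, 430.4, 163 and 200.1 FPKM in Dcon. hsp70.3 was at 388, 171, 244, 254 and 381 FPKM in D3W, against 631, 343, 912, 407 and 419.8 FPKM in Dcon, so that 2 D3W libraries were above the lowest Dcon library. HSPA2, a cytosolic Hsp70 gene, was at 367, 262, 133, 235 and 349.7 FPKM in D3W, against 791, 428, 912, 489.9 and 432 FPKM in Dcon, with no overlap as deposited. None of the 4 passed the test, with adjusted p between 0.541 and 0.817 for D3W.

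In D3W against Dcon, 7 of the 93 genes had lower FPKM in every injured library, as had 1.18% of all genes, and none were higher throughout, against 0.603% of all genes. They were hsp70l, hsp70.1, HSPA2, TCP1, DNAJC6, DNAJC2 and ST13. The 5 such genes in D8W were DNAJA2 (ENSDARG00000010745), HSPE1, HSPA8 (ENSDARG00000068992), HSPA12A and HSP90AA1, and 1.45% of all genes lay lower without overlap there. Both counts are of FPKM as deposited. After scaling, DNAJC2 alone of the 7 D3W genes stayed without overlap, and no scaled overlap is given for the 5 D8W genes. The 7 and the 5 genes, as far as they were not named by the rule in the processing section, were chosen after their values were seen. So were HSPA9, HSPA5, HSPB8, hsf1, HSF2 and BAG3.

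Other genes that move with handling of the cells stood beside the inducible Hsp70 genes. The summed FPKM of hsp70.1, hsp70.3 and hsp70l was 1018, 393, 438, 666 and 1100.3 in D3W, against 1402, 1258, 2814, 1285 and 1294 in Dcon. For 20 immediate-early genes, which neurons and stressed cells switch on within minutes, the sum was 2792, 1208, 1396, 2389 and 3336 in D3W, against 3047, 1507, 3719, 2252 and 1728 in Dcon. As deposited, the immediate-early sums of the 2 groups overlapped, and the Hsp70 sums did not. After scaling, both overlapped, the Hsp70 sums through D3W replicate 5. Within D3W both sums put the libraries in the same order, and within Dcon they did so except for replicates 4 and 5. In D8W the Hsp70 sums were 1483, 255, 678, 418, 162 and 460, and replicate 1 lay within the Dcon range. The immediate-early sums there were 4219, 876, 1642, 1153, 1506 and 3450. Replicate 1 of D8W was highest on both, and the other D8W libraries came in different orders. Of the 20 immediate-early genes 0 passed the test in D3W and 1, fosaa, was lower in D8W. In G3W the Hsp70 sums were 2052, 1641, 1102, 100 and 166, and the immediate-early sums 3357, 3177, 2075, 658 and 962, so replicates 4 and 5 were lowest on both. Their part in the result was not tested.

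**Figure D2:**
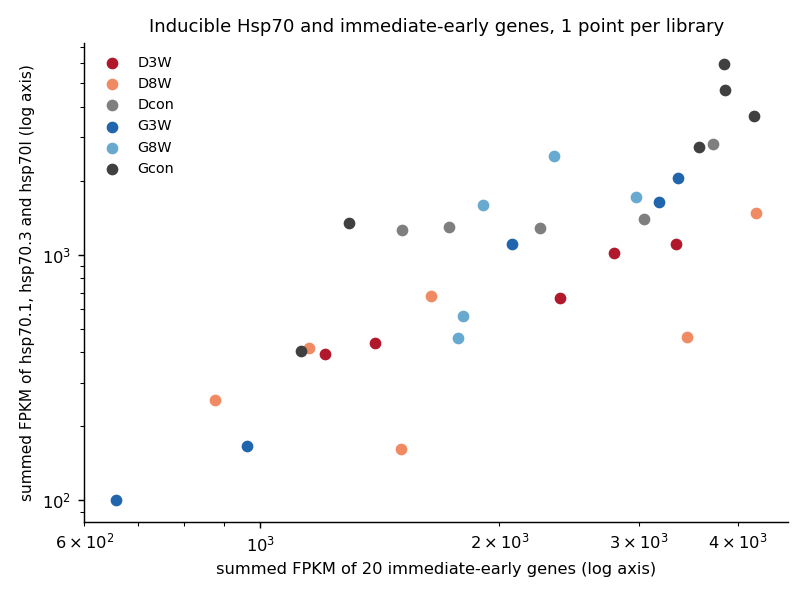
Summed FPKM of hsp70.1, hsp70.3 and hsp70l against the summed FPKM of 20 immediate-early genes, both on log axes, with a point for each of the 32 libraries. As deposited, the Dcon libraries have Hsp70 sums of 1258 to 2814 and lie above the D3W libraries, which run from 393 to 1100.3. After scaling, D3W replicate 5 lies within the Dcon range. The immediate-early sums run from 1507 to 3719 in Dcon and from 1208 to 3336 in D3W.

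The constitutive Hsp70 gene HSPA8 (ENSDARG00000068992), which strips clathrin from vesicles and folds new proteins, was low against Dcon at both times. It was at 295, 626, 114, 270.3 and 249.9 FPKM in D3W and at 159 to 405 FPKM with a median of 259 in D8W, against 719, 616, 615, 948 and 781 FPKM in Dcon. All D8W libraries lay below Dcon, and of the D3W libraries only replicate 2 reached the Dcon range. The log2 differences were -1.08 ± 0.393 in D3W (SE; limma adjusted p = 0.194) and -1.06 ± 0.376 in D8W (adjusted p = 0.282), and they share the Dcon libraries. HSPA12A, a distant relative with a partial Hsp70 fold, was at 44.1, 88, 0, 4.81 and 0 FPKM in D3W and 6.73 to 21.1 FPKM in D8W, against 43.2, 43.9, 31.3, 138 and 48.5 FPKM in Dcon. Its log2 difference was -2.67 ± 0.80 in D3W (adjusted p = 0.0991) and -1.88 ± 0.766 in D8W (adjusted p = 0.363). Over the 16 Hsp70 genes, 15 differences were negative in D3W and 11 in D8W, with medians of -0.54 and -0.95. Of all genes 47.8 and 38.7% were negative.

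The Hsp90 genes overlapped between D3W and Dcon. HSP90AA1, the stress-responsive cytosolic form, was at 987, 459, 385, 973 and 623 FPKM in D3W, within and around the 788, 650.4, 1095, 753 and 935 FPKM of Dcon (log2 difference -0.03 ± 0.524, limma adjusted p = 1). In D8W it ran from 213 to 612 FPKM with a median of 407, below every Dcon library, with a log2 difference of -0.67 ± 0.502 (adjusted p = 0.654). The constitutive HSP90AB1 was at 457, 628, 538, 462 and 329.6 FPKM in D3W and 333 to 669 FPKM in D8W, against 930.3, 666, 596, 959.5 and 727 FPKM in Dcon, and both injured groups touched the Dcon range. Its highest library was at most 2.01 times its lowest within each D group. Hsp90 genes made up 28.3% of the chaperone FPKM in D3W, 25% in D8W and 21.9% in Dcon, whereas Hsp70 genes made up 36.4, 32.9 and 45.2%.

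Among the cochaperones, ST13 (Hip), which holds Hsp70 on its client, was low in D3W. It was at 11.5, 28.6, 0.39, 18.2 and 0.548 FPKM in D3W, against 28.8, 40, 31.4, 32.5 and 29.1 FPKM in Dcon, just without overlap as deposited (log2 difference -2.03 ± 0.644, SE; limma adjusted p = 0.121). STIP1 (Hop), which bridges Hsp70 and Hsp90, was at 53.9, 64.7, 50.5, 23.7 and 0 FPKM in D3W and 12.2 to 55.9 FPKM in D8W, against 38.9 to 89.6 FPKM in Dcon. HSPBP1, a nucleotide exchange factor of Hsp70, overlapped widely, with 3.35 to 39 FPKM in D3W, 4.98 to 86.6 in D8W and 5.88 to 67.9 in Dcon.

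**Figure D3:**
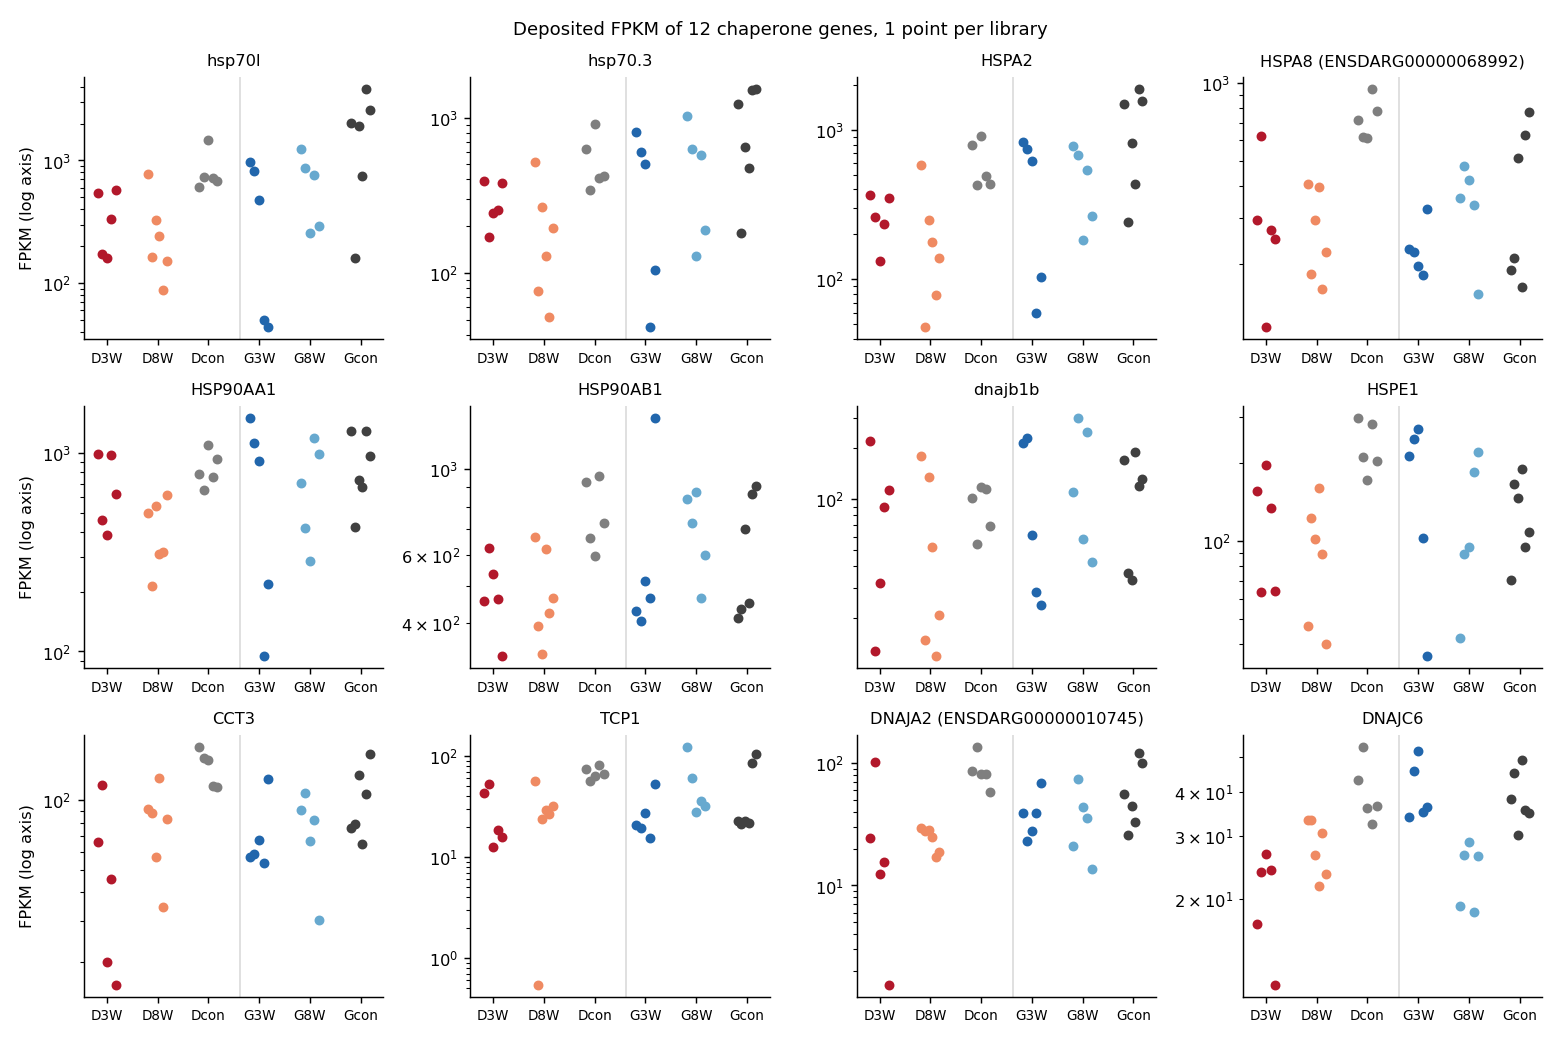
FPKM as deposited, without scaling, on a log axis, of 12 chaperone genes in each library, by group. In Dcon the 5 libraries sit close together for HSPA2, TCP1 and DNAJC6 and above all D3W libraries, while HSP90AA1 and HSP90AB1 of D3W and Dcon overlap.

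The subunit genes of the CCT ring shared a direction in D3W. All 9 CCT genes had a negative log2 difference against Dcon, with a median of -1.10, where 47.8% of all genes were negative. Of the 9 CCT genes 4 had an unadjusted p under 0.05, as had 12.5% of all genes, and 0 passed the adjusted test by limma. The family's summed FPKM was 303, 539.6, 297, 211 and 123 in D3W, and 249 to 484 with a median of 391 in D8W, against 616, 549, 595, 721 and 597 in Dcon. As deposited, every injured library was below every Dcon library, narrowly so for D3W replicate 2. After scaling, D3W replicate 2 and D8W replicates 4, 5 and 6 lay above the lowest Dcon library. CCT3 was at 65.7, 117, 19.8, 45.8 and 15.8 FPKM in D3W, against 171, 153, 149, 116 and 115 FPKM in Dcon (log2 difference -1.40 ± 0.413, SE; adjusted p = 0.0921). TCP1, the subunit after which the ring is named, stood at 42.7, 53.5, 12.7, 18.7 and 15.7 FPKM in D3W, against 74.2, 56.1, 64, 80.9 and 66.8 FPKM in Dcon, without overlap as deposited (-1.10 ± 0.659, adjusted p = 0.527). CCT2 (ENSDARG00000104674) was at 17.7, 70.8, 0, 13.6 and 18.9 FPKM in D3W, against 89.9, 51.9, 81, 102 and 80.6 FPKM in Dcon (-2.35 ± 0.764, adjusted p = 0.134).

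In D8W the CCT genes lay between D3W and Dcon. The median log2 difference of D8W against Dcon was -0.46, with 8 of 9 negative, and that of D8W against D3W was 0.84, with 3 of 9 negative. Of all genes 38.7 and 40.4% were negative in these 2 comparisons. CCT3 ran from 34.3 to 125 FPKM with a median of 86 in D8W, and CCT2 (ENSDARG00000104674) from 28.3 to 125 FPKM with a median of 65.8. For CCT2 the log2 difference of D8W over D3W was 2.40 ± 0.731 (SE; limma adjusted p = 0.306). No chaperone gene passed between D8W and D3W, where 0.0399% of all genes did, and 11 were higher and 3 lower at an unadjusted p under 0.05, or 15.1% against 9.18% of all genes. The list of 10 prefoldin and CCT cofactor genes, which hand actin and tubulin to the ring, had 0 members past the test against Dcon at either time. PFDN2 had a log2 difference of -1.86 ± 0.84 in D3W (adjusted p = 0.338) and PFDN6 of 1.41 (adjusted p = 0.385).

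HSPD1 and HSPE1 code for Hsp60 and its lid Hsp10, which form the folding chamber of the mitochondrial matrix, and their genes are neighbours in the GRCz12tu annotation. HSPD1 was at 11.2, 35.3, 0.0438, 9.54 and 3.4 FPKM in D3W and at 4.42 to 41.8 FPKM with a median of 27.8 in D8W, against 65.9, 61.5, 29.8, 93.4 and 60.8 FPKM in Dcon. Its log2 difference in D3W, -2.77 ± 0.728 (SE), had the smallest adjusted p of the 93 genes in this comparison (limma, 0.0572), and with FPKM as deposited it passed (adjusted p = 0.0406). HSPE1 was at 156, 63.5, 196, 134 and 64.1 FPKM in D3W, against 299, 212, 172, 284 and 204 FPKM in Dcon, with 1 overlapping D3W library. In D8W its 40.1 to 160.4 FPKM lay below all Dcon libraries (log2 difference -1.03 ± 0.478, adjusted p = 0.44). HSPA9, the matrix Hsp70, was at 70.6, 65.1, 26.2, 25.3 and 88.2 FPKM in D3W and 18.6 to 75.5 FPKM in D8W, against 105, 137, 91.4, 51.7 and 86.1 FPKM in Dcon. Over 7 mitochondrial chaperone genes the median log2 difference was -0.92 in D3W with 6 negative, and -0.84 in D8W with 5 negative, against 47.8 and 38.7% of all genes. Transcripts of the mitochondrial genome itself went the other way, with positive differences for 13 of 13 genes at both times and none past the test.

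The J proteins were mixed. DNAJA2 (ENSDARG00000010745), a cytosolic partner of HSPA8, was at 24.3, 102, 12.5, 15.7 and 1.54 FPKM in D3W and 17.2 to 29.7 FPKM in D8W, against 85.9, 136, 81.2, 81.5 and 58.5 FPKM in Dcon. Its D8W libraries and 4 of the 5 D3W libraries were below all Dcon libraries, with log2 differences of -2.02 ± 0.569 in D3W (SE; limma adjusted p = 0.0757) and -1.38 ± 0.545 in D8W (adjusted p = 0.345). dnajb1b, a stress-inducible J protein, was spread more widely, with 218, 12.8, 32.1, 89 and 112 FPKM in D3W, against 101, 54.1, 118, 114 and 68.9 FPKM in Dcon. DNAJC16 (ENSDARG00000059699) was at 7.04, 21.7, 0, 1.87 and 0 FPKM in D3W, against 13.4, 20.9, 21.8, 31 and 24.7 FPKM in Dcon (-2.52 ± 0.692, adjusted p = 0.0675). DNAJC2, a J protein bound to ribosomes, was at 0.217, 2.81, 0, 0 and 0 FPKM in D3W, against 4.13, 5.09, 3.96, 8.98 and 5.3 FPKM in Dcon. By class, the median log2 difference in D3W was -1.17 over the 6 class A genes, -0.53 over the 14 class B genes and -0.00 over the 30 class C genes.

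At the synapse, DNAJC6 (auxilin) recruits HSPA8 to clathrin-coated vesicles. It was at 17, 23.8, 26.8, 24.1 and 11.5 FPKM in D3W, and 21.7 to 33.4 FPKM with a median of 28.6 in D8W, against 43.3, 53.4, 36.1, 32.4 and 36.4 FPKM in Dcon. As deposited, the D3W libraries were all lower and D8W reached into the lower end of Dcon. The D3W difference was -0.63 ± 0.367 (SE, limma adjusted p = 0.51). The same gene was at 19.1, 26.6, 29, 18.4 and 26.5 FPKM in G8W, below all of the 34, 45.7, 51.9, 35.1 and 36.1 FPKM of G3W and the 30.3 to 49 FPKM of Gcon. It was the 1 chaperone gene lower in this way in each of these comparisons, with 1.13% of all genes against G3W and 0.585% against Gcon. A count of 1 in 93 is near that background. In D3W DNAJC6 was also below all of G3W, as were HSPA12B and 5.53% of all genes, a larger share than 2 in 93. DNAJC6 varied little, with its highest library between 1.53 and 2.33 times its lowest in the 6 groups. DNAJC5 (ENSDARG00000042948), the cysteine string protein of vesicles, was at 459.7, 379, 180.2, 95.6 and 157 FPKM in D3W, against 515, 515, 458, 362 and 344 FPKM in Dcon. dnajc5ga, a related gene, was at 23.9, 41.1, 9.91, 11.5 and 11.7 FPKM in D3W and 0.706 to 43.4 FPKM in D8W, against 76.7, 56.3, 36.8, 86.6 and 81.2 FPKM in Dcon, with a D8W log2 difference of -1.78 ± 0.613 (adjusted p = 0.264). Of the 6 tested synaptic and vesicle J proteins, 4 had negative differences in D3W and 3 in D8W, against 47.8 and 38.7% of all genes.

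**Figure D4:**
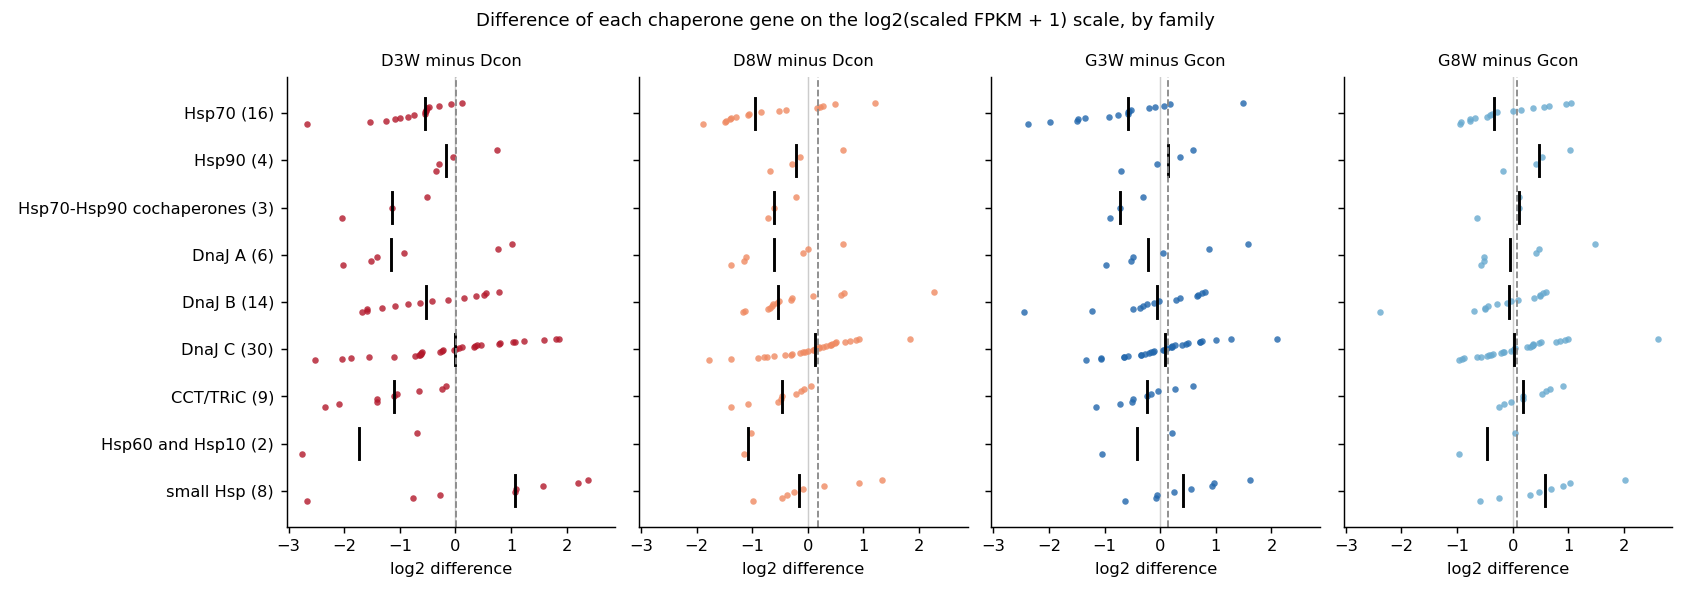
Log2 differences of the chaperone genes by family in 4 comparisons (points, 1 per gene), with the family median (black bar) and the median of all tested genes (dashed line); members are counted in brackets. In D3W against Dcon the CCT median is -1.10 and that of the small heat shock proteins 1.08.

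Small heat shock proteins hold unfolding proteins without using ATP, and their family median in D3W was 1.08, with 5 of 8 differences positive, while the medians of the other families were at or below 0. HSPB8, which works with BAG3 in clearing damaged proteins, was at 5.02, 5.29, 0, 18 and 9.43 FPKM in D3W, against 0, 0, 3.58, 0 and 0 FPKM in Dcon (log2 difference 2.2 ± 0.697, SE; limma adjusted p = 0.121). HSPB1 was at 53.2, 0, 30.7, 0.995 and 71.9 FPKM in D3W, against 0, 18.6, 12.1, 0 and 55.1 FPKM in Dcon, and its libraries overlapped. hspb15 was at 84.7, 8.04, 0, 40.1 and 67.4 FPKM in D3W, against 0, 0, 10.8, 0 and 67.4 FPKM in Dcon. Among the members that did not share this direction was hspb6, at 9.02, 5.19, 0, 2.39 and 0 FPKM in D3W, against 106, 13.6, 8.3, 22.4 and 10.6 FPKM in Dcon (-2.67 ± 0.794, adjusted p = 0.0965). The median of the family was -0.16 in D8W. Glial genes moved beside these values: among 12 tested astroglia and ependymal markers S100B rose in D3W (adjusted p = 0.00832), and among 12 oligodendrocyte and Schwann cell markers 1 was higher (adjusted p = 0.0337). The summed 17 astroglia and ependymal IDs were at 1094 to 2922 FPKM in D3W and 409 to 3422 FPKM in Dcon, and the oligodendrocyte markers at 2251 to 19977 FPKM in D3W and 3588 to 8899 FPKM in Dcon, so the groups overlapped. Their part in the result was not tested.

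Chaperones of the endoplasmic reticulum had summed levels that, as deposited, lay close together in the 6 groups. Scaling factors were 0.729 to 1.02 in D8W and 1.28 to 1.55 in Gcon, so scaled sums lay further apart. The sum over 10 such genes was 201 ± 89 FPKM in D3W, 214 ± 73.4 in D8W and 215 ± 31.9 in Dcon, and 193 ± 31.7 in G3W, 207 ± 31 in G8W and 219 ± 76.4 in Gcon. HSPA5 (BiP), the Hsp70 of this compartment, was at 161, 83.2, 11.9, 66.1 and 67.1 FPKM in D3W, against 67, 92.2, 162, 55.1 and 123 FPKM in Dcon. HSP90B1, its Hsp90, was at 49.6, 23.2, 33.5, 15.1 and 10.8 FPKM in D3W, against 24.8, 22.1, 18.9, 9.74 and 13.6 FPKM in Dcon. Of 22 tested genes for folding in the endoplasmic reticulum and the unfolded protein response, 0 passed in either comparison with Dcon. The smallest p in both belonged to SIL1, the exchange factor of BiP, at 0 to 32.4 FPKM in D3W and 3.78 to 10.2 FPKM in D8W, against 0 to 7.69 FPKM in Dcon, where 4 of 5 libraries were listed at 0. Its log2 difference was 2.26 ± 0.822 in D3W (SE; limma adjusted p = 0.195) and 2.60 ± 0.787 in D8W (adjusted p = 0.2).

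Of 32 tested heat shock factors and Hsp70 or Hsp90 cofactors, 0 passed in D3W by limma, and 9 were lower and 2 higher at an unadjusted p under 0.05. In either direction, 12.5% of all genes had such a p. hsf1, the main heat shock factor of the stress response, had a log2 difference of -2.15 ± 0.763 in D3W (SE; adjusted p = 0.18) and of -0.83 ± 0.731 in D8W (adjusted p = 0.721). HSF2 and BAG3 stood at -2.15 ± 0.851 and -2.21 ± 0.949 in D3W (adjusted p = 0.248 and 0.304). TRAP1, the mitochondrial Hsp90, was at 0 to 7.96 FPKM with a median of 1.14 in D3W and 0 to 11.6 FPKM with a median of 6.08 in D8W, against 7.05 to 52.9 FPKM with a median of 17.9 in Dcon. It had the smallest p of this list in D3W, with a log2 difference of -2.41 ± 0.687 (adjusted p = 0.0807). In D8W the smallest was that of bag1, an exchange factor of Hsp70, with 16.9 to 44.5 FPKM in D8W, against 0 to 37.5 FPKM in Dcon (2.66 ± 0.772, adjusted p = 0.177).

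Several less abundant genes stood out from the general direction. DNAJB13, a J protein of cilia and flagella in mammals, was at 7.38, 0, 0, 0 and 0 FPKM in D3W and 0 to 24.8 FPKM with a median of 2.95 in D8W, and it was listed at 0 in all Dcon libraries (D8W log2 difference 2.27 ± 0.816, SE; limma adjusted p = 0.289). dnajc4 was at 5.9 to 33.2 FPKM with a median of 10.3 in D8W, against 15.7, 5.13, 10.3, 0 and 0.768 FPKM in Dcon (1.84 ± 0.669, adjusted p = 0.293). Both had higher medians in D8W than in Dcon, and their libraries overlapped. The smallest p between D8W and D3W belonged to dnajc8, a J protein of the spliceosome, at 46.9 to 102 FPKM with a median of 61.1 in D8W, against 73.8, 53.8, 2.43, 44.6 and 0 FPKM in D3W (2.39 ± 0.652, adjusted p = 0.245). Its lowest D3W values lay in replicates 3 and 5, the libraries with the fewest genes. DNAJC11 (ENSDARG00000011196), a protein of the mitochondrial membrane contacts, was at 0 to 4.74 FPKM in D8W, against 0.561, 10.9, 25.1, 2.19 and 8.77 FPKM in D3W (-2.13 ± 0.718, adjusted p = 0.376). dnaja1 was at 0 to 11.5 FPKM with a median of 0.628 in D8W, against 2.33, 9.88, 20, 4.22 and 20.2 FPKM in D3W (-1.88 ± 0.749, adjusted p = 0.463).

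In cells without tracer, HSPA12B was the 1 chaperone gene past the test. The 7 libraries through which it passed the filter on low values were all of G3W (4) and G8W (3), so it entered the tests by the groups where it is high, and its call is a description of those groups rather than support for a difference. It was also the 1 gene of the 93 with no overlap between G3W and Gcon, where 0.94% of all genes lay higher in this way. A count of 1 in 93 is near that background. HSPA12B, an atypical Hsp70 known in mice and humans from endothelial cells, was at 2.05, 0.967, 7.63, 1.52 and 3.54 FPKM in G3W and at 0, 3.06, 1.9, 1.6 and 0.589 FPKM in G8W, and it was listed at 0 in all 6 Gcon libraries. The G3W difference was 1.49 ± 0.318 on the log2(FPKM + 1) scale (SE; limma adjusted p = 0.0482), a size set by the pseudocount since Gcon is listed at 0: it was 4.16 with a pseudocount of 0.1. In this comparison 0.0931% of all genes passed, 0.0798% as higher. The call was lost when any 1 of 10 of the 11 libraries was left out, all but G3W replicate 2, and the adjusted p ran from 0.0259 to 0.15 over the 11. It was also lost in 5 of 8 other settings. In G8W the difference was 0.96 ± 0.318 (adjusted p = 0.556), and 0 of 93 genes passed there, where 0.031% of all genes did and 3 chaperone genes were higher and 1 lower at an unadjusted p under 0.05, or 4.3% against 6.28% of all genes. The same count in G3W was 3 higher and 8 lower, or 11.8% against 7.01%.

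Traced cells had next to none of it: HSPA12B was at 0, 0.193, 0, 0 and 0 FPKM in D3W and 0 to 0.549 FPKM in D8W, and at 0, 0, 0, 0.325 and 0.167 FPKM in Dcon. Against G3W it was again the 1 chaperone gene past the test in D3W, with a log2 difference of -1.45 (SE 0.332, limma adjusted p = 0.0192), where 1.29% of all genes passed and 1.09% as lower. The filter bears on this call in the same way. This call was lost without G3W replicate 3 (adjusted p = 0.0763) and in 4 of 9 other settings. The test of whether the response to injury at 3 weeks differed between D and G cells gave -1.56 ± 0.459 (adjusted p = 0.667) for HSPA12B and passed for 0 of 93 genes (0.00443% of all genes), with 0 higher and 5 lower at an unadjusted p under 0.05, or 5.38% against 5.62% of all genes. At 8 weeks it also passed for 0 of 93 (0.0% of all genes), with 1 higher and 2 lower, or 3.23% against 4.55%. Of 9 tested endothelial and mural cell markers 0 passed in G3W against Gcon or in D3W against G3W. The summed level of all 14 IDs of that list was 4.29 to 137 FPKM in D3W, 11 to 53.5 FPKM in G3W and 11 to 69.6 FPKM in Gcon. Of the endothelial genes, kdrl was at 0 to 0.85 FPKM in D3W, 0 to 2.19 FPKM in G3W and 0 to 2.14 FPKM in Gcon. cdh5 was at 0 to 0.666 FPKM in D3W, 0 to 0.28 FPKM in G3W and 0 to 1.68 FPKM in Gcon. The mural gene TAGLN (ENSDARG00000033466) was higher, at 0 to 82.2 FPKM in D3W, 2.76 to 28.3 FPKM in G3W and 0 to 56.7 FPKM in Gcon. Their part in the HSPA12B values was not tested.

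**Figure D5:**
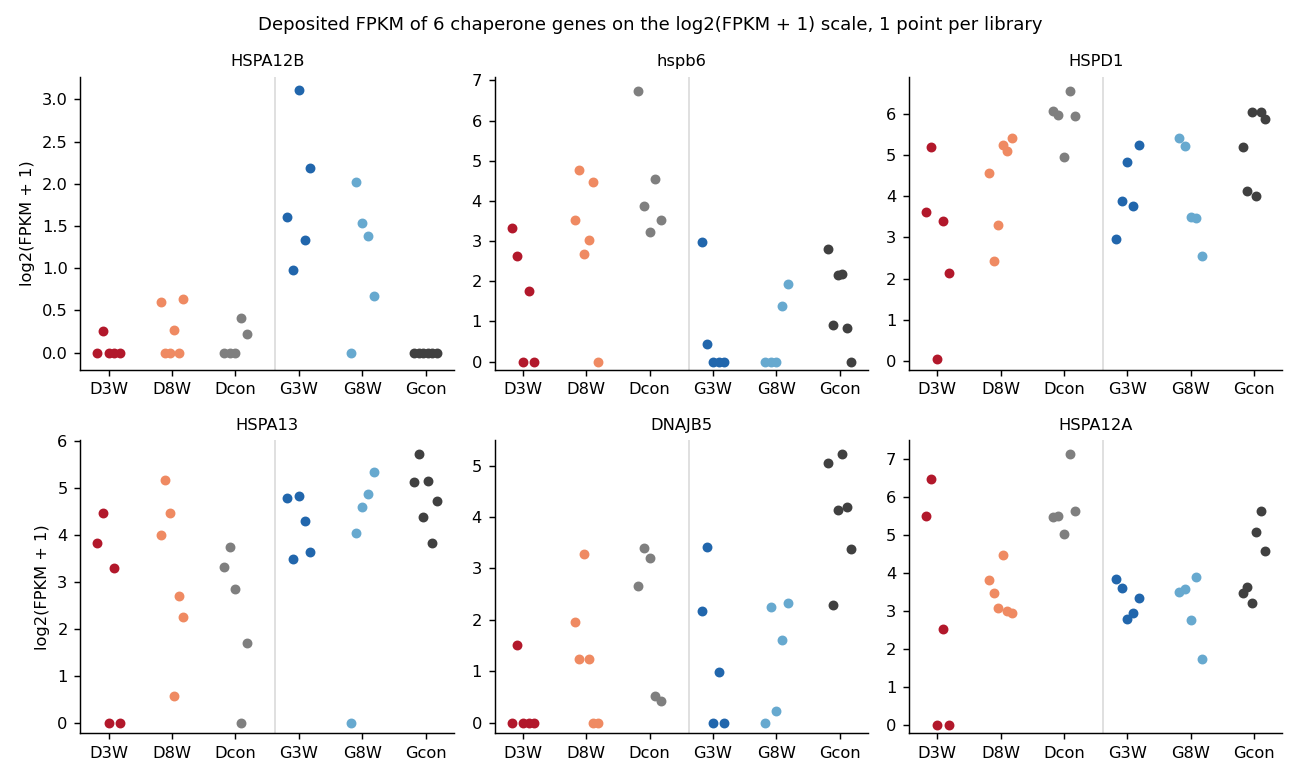
Values of 6 genes at low or uneven levels, as log2(FPKM + 1) without scaling, in each library by group. HSPA12B is above 0 in all 5 G3W libraries and listed at 0 in all 6 Gcon libraries, and hspb6 of Dcon lies above all Gcon libraries.

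Other genes of the G cells had wide spreads. hsp70l was at 978, 823, 474, 50.2 and 43.6 FPKM in G3W and at 1250.0, 865, 256, 765 and 291 FPKM in G8W, against 161 to 3831 FPKM with a median of 1970.3 in Gcon. Its log2 difference in G3W was -2.38 ± 0.705 (SE; limma adjusted p = 0.314), and within G3W the highest library was 22.4 times the lowest, within Gcon 23.7 times, while within Dcon the ratio was 2.44. In G3W, replicates 4 and 5 were also the lowest 2 for hsp70.1, hsp70.3, HSPA2, HSP90AA1 and dnajb1b. HSP90AB1 did not share that pattern, with 431, 407, 515, 466 and 1358 FPKM in G3W. DNAJB5 was at 3.48, 9.63, 0, 0.979 and 0 FPKM in G3W and 0, 3.78, 0.172, 2.07 and 3.99 FPKM in G8W, against 3.86 to 36.4 FPKM in Gcon, with log2 differences of -2.46 ± 0.683 and -2.39 ± 0.683 (adjusted p = 0.245 and 0.367). DNAJC12 was at 37.3, 13.1, 15.5, 19.3 and 40.7 FPKM in G8W, against 0 to 27.7 FPKM with a median of 2.95 in Gcon, and dnaja at 17.6, 22, 8.02, 51.7 and 32.2 FPKM in G8W, against 2.99 to 18.4 FPKM with a median of 8.6 in Gcon. Their log2 differences were 2.61 ± 0.976 and 1.48 ± 0.71 (adjusted p = 0.613 and 0.775). G3W and G8W share the Gcon libraries. Over the 93 genes the median log2 difference was -0.10 in G3W and 0.05 in G8W, against 0.14 and 0.08 for all genes. Between G8W and G3W 0 of 93 passed (0.00443% of all genes), with 1 higher and 0 lower at an unadjusted p under 0.05, or 1.08% against 3.17% of all genes; that gene was CCT4 (1.26 ± 0.454, adjusted p = 1).

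In uninjured fish, traced and untraced cells were compared. Between Dcon and Gcon 0 of 93 genes passed by limma, where 0.288% of all genes did, with 10 higher and 3 lower at an unadjusted p under 0.05, or 14% against 10.6% of all genes. The same Dcon libraries serve in the comparisons with D3W and D8W, so higher levels in Dcon here and lower levels after injury are not independent. All 9 CCT genes had a positive difference, with a median of 0.80, against -0.15 for all genes. With FPKM as deposited the 2 medians were 0.51 and -0.31. HSPA8 (ENSDARG00000068992) was at 719, 616, 615, 948 and 781 FPKM in Dcon, against 163 to 775 FPKM with a median of 361 in Gcon (log2 difference 1.38 ± 0.376, SE; adjusted p = 0.104). hspb6 was at 106, 13.6, 8.3, 22.4 and 10.6 FPKM in Dcon, above the 0 to 5.97 FPKM of all Gcon libraries (2.94 ± 0.76, adjusted p = 0.0805), and 0.244% of all genes were higher without overlap. HSPA13, an Hsp70 of the endoplasmic reticulum, was at 8.95, 12.5, 6.24, 0 and 2.28 FPKM in Dcon, below the 13.1 to 51.7 FPKM of Gcon (-2.15 ± 0.858, adjusted p = 0.339), where 1.75% of all genes were lower without overlap. The list of cytosolic heat-inducible genes did not take in HSP90AA1, whose symbol was not matched. Its summed FPKM was 1508, 1331, 2955, 1405 and 1427 in Dcon, against 446 to 6071 with a median of 3324 in Gcon, a range that takes in all of Dcon. Over the 8 tested genes of that list, 4 differences were negative.

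Traced and untraced cells were also compared after injury. At an unadjusted p under 0.05, 4 chaperone genes were higher and 3 lower in D3W than in G3W, or 7.53% against 13.4% of all genes. Against G8W, 0 of 93 genes passed in D8W by limma (0.0665% of all genes), with 2 higher and 5 lower at an unadjusted p under 0.05, or 7.53% against 6.98% of all genes. The summed Hsp70 family was 1595 ± 526 FPKM in D3W and 1926 ± 1273 in G3W, and 1326 ± 793 FPKM in D8W and 2471 ± 1185 in G8W (SD, n = 5, 5, 6 and 5). The summed CCT family was 295 ± 155 FPKM in D3W and 365 ± 118 in G3W, and 379 ± 102 FPKM in D8W and 470 ± 205 in G8W, so the CCT sums of D and G cells differed by less than the SD of either group. hspb6 was at 0 to 26.4 FPKM with a median of 8.87 in D8W, against 0, 0, 0, 1.6 and 2.84 FPKM in G8W (log2 difference 2.54 ± 0.76, adjusted p = 0.294). HSPB7 and HSPB2, small heat shock proteins of heart and muscle, leaned the other way: HSPB7 was at 0 to 1.43 FPKM in D8W, against 18.4, 1.96, 0, 7.54 and 6.24 FPKM in G8W (-1.81 ± 0.744, adjusted p = 0.607), and HSPB2 at 0 to 0.342 FPKM, against 0, 3.18, 4.35, 3.25 and 0.391 FPKM (-1.13 ± 0.502, adjusted p = 0.662). DNAJC17 was at 0 to 5.07 FPKM in D8W, against 0, 9.64, 15.2, 10.4 and 11.3 FPKM in G8W (-2.07 ± 0.876, adjusted p = 0.628). HSPA4L, of the Hsp110 branch that exchanges nucleotide on Hsp70, was at 40.6, 26.5, 31.1, 5.39 and 12.9 FPKM in D3W, against 9.55, 12.4, 11.9, 6.61 and 9.78 FPKM in G3W (1.45 ± 0.537, adjusted p = 0.206). In D3W against G3W, 1 of the 5 neuronal markers tested fell and 13 of 13 mitochondrial genome genes rose. Of all genes, 1.29% passed the test in this comparison, and 64% had a negative difference after scaling. The 7 markers of V2a and glutamatergic neurons summed to 62.7 to 199 FPKM in D3W, below all of the 223 to 496 FPKM of G3W. The part of these genes in the chaperone values was not tested. The median of the 93 genes there was -0.003 after scaling and -0.40 with FPKM as deposited, so no direction is given for it.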

How the data were processed

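RNA of V2a interneurons sorted by fluorescence was amplified with the SMART-Seq v4 low input kit and made into libraries with the NEBNext kit, per the labels' protocols. The authors deposited 1 table of FPKM values, that is, fragment numbers relative to gene length and to the total of each library. HISAT2 2.0.5, HTSeq 0.9.1 and the build danRer11 appear, without their roles, per the submitters' processing notes; whether counting used strand is not given in the sources used here. Symbols came from a table of gene IDs that named 29178 of the 42370 IDs. For the tests, each library was scaled by median ratios (6387 genes at 1 FPKM in at least 28 libraries, pseudocount 0.1), and log2(FPKM + 1) of the 22552 genes at 1 FPKM in at least 5 libraries was fitted with limma 3.58.1 (R 4.3.3; trend, robust) on the 6 group means, giving 9 pairwise contrasts and 2 differences of contrasts. A fold change on this scale understates that of low genes. Levels in the text are FPKM as deposited. Overlap between groups, of genes and of sums, was judged on these unless scaling is named.

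The members, lists and tests were chosen with earlier results of these data known. Named were members past the threshold, the 4 highest of each family, the 4 smallest p in each pairwise comparison, the cytosolic heat-inducible list, and from the other lists the genes past the threshold or else the 2 smallest p. List symbols without a match were looked up in capitals without a final a or b. Relative depth came from steps of values below 0.5 FPKM, and the depth itself is unknown. A further marker gene is not reported here. The scripts were tested on 5 simulated data sets for D3W against Dcon. There 2.39% of changes of 1 log2 unit, 23.9% of those of 2 and 89.1% of those of 4 passed. Of all simulated calls 13% were false. Few of the smaller changes passed, so a count of 0 does not show that the genes were unchanged. Tables and plots used Python 3.11.15, numpy 2.4.6, pandas 2.3.3 and matplotlib 3.10.9. Protein and promoter sequences were not used here. Alternatives were a pseudocount of 0.1, testing all genes, no scaling, quantile normalization, fits of the compared groups alone, array weights, a replicate block, detected genes as a covariate and leaving out libraries.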

Additional observations from a re-analysis of the deposited data

Results flagged for a closer look

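In 27 of 294 sets of libraries (49 named genes in 6 groups), the highest or lowest library stood apart from the others of its group by Dixon's criterion, for 18 genes. Chance flags about 1 in 20 groups where values are normally distributed. A group with a single library above 0 is always flagged, so that rate cannot be set against the 27. There were 8 in D3W, 5 each in D8W, Dcon and G3W, 4 in G8W and none in Gcon.

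G3W replicate 5 stood high for 4 genes of the cytosolic folding machinery: CCT3 at 123 FPKM, CCT7 at 86.6 FPKM, DNAJA2 (ENSDARG00000104066) at 56.8 FPKM and HSP90AB1 at 1358 FPKM. In the same group hspb6 stood high in replicate 1 at 6.89 FPKM. Low libraries were DNAJA2 (ENSDARG00000104066) at 0 FPKM in D3W replicate 3 and at 11.3 FPKM in D8W replicate 2, STIP1 at 0 FPKM and CCT4 at 11.3 FPKM in D3W replicate 5, dnajb2 at 0 FPKM in D8W replicate 6, and HSPA8 (ENSDARG00000068992) at 153 FPKM and DNAJC17 at 0 FPKM in G8W replicates 5 and 1.

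The others were genes low in the rest of their group and highest in a single library. In D3W these were HSPA12B at 0.193 FPKM, DNAJB5 at 1.86 FPKM and HSPB2 at 0.292 FPKM in replicate 2, DNAJB13 at 7.38 FPKM in replicate 1 and hsp90aa1.1 at 0.169 FPKM in replicate 4. In D8W they were hsp90aa1.1 at 1.24 FPKM and DNAJC17 at 5.07 FPKM in replicate 3, and HSPB2 at 0.342 FPKM in replicate 6. In Dcon they were hsp90aa1.1 at 2.51 FPKM and hspa1b at 4.62 FPKM in replicate 5, HSPB7 at 14.1 FPKM in replicate 4, and DNAJC17 at 5.77 FPKM and HSPB2 at 2.7 FPKM in replicate 3. In G8W hspb15 stood at 31.4 FPKM in replicate 2 and hspa1b at 1.08 FPKM in replicate 4.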

How the results depend on the processing

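Of the counts of genes past the threshold, 206 kept within 1.5 times their main value over the alternatives and 25 did not. Of the median differences 228 moved by less than the spread between replicates (SD 0.374) and 3 did not. That SD is larger than most of the medians, so a median could change sign and still count as kept. The median of D8W against D3W did so, from 0.24 to -0.09 in 1 setting. Between D3W and Dcon the count, 0 in the main test, was 1 with FPKM as deposited (HSPD1) and 0 to 9 when 1 library was left out. It was 2 without D3W replicate 1 (DNAJC16 ENSDARG00000059699 and HSPA12A), and 9, the genes named in the report, without D3W replicate 2. Between G3W and Gcon the count of 1 (HSPA12B) became 0 with no filter on low values, quantile normalization, only the groups compared, the replicate block and with detected genes as a covariate, and ran from 0 to 1 with 1 library left out. Between D3W and G3W the count of 1 became 0 with quantile normalization, only the groups compared, the covariate, and without the 2 D3W libraries with fewest genes, and ran from 0 to 1 with 1 library left out. Between Dcon and Gcon it was 1 with array weights (hspb6), and 0 to 1 with 1 library left out (HSPA8 ENSDARG00000068992 without Gcon replicate 6). The median of the 93 genes, -0.003 in D3W against G3W, was -0.40 with FPKM as deposited and 0.49 with the covariate, and in D8W against G8W, 0.07 in the main test, it was -0.34 with FPKM as deposited, where the median of all genes was -0.58 and -0.32. The difference of dnajc8 between D3W and G3W, -1.65, turned to 0.23 without the 2 D3W libraries with fewest genes. The cause was not tested, except that leaving out samples leaves fewer of them. Of the differences of single genes, 655 kept their direction and side of the threshold, 20 lost and 8 gained a call and 1 turned. Over 76 pairs of same-numbered libraries of different groups, the median correlation of their deviations was 0.0018, with 2 over 0.1. Most of these pairs joined different conditions, so this cannot show whether D and G libraries of the same condition were paired. The replicate block changed no other count.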
